A study of Mus musculus with 2 samples.

Results

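The Hedgehog pathway genes described here are the ligand *Shh*, the receptor *Ptch1*, the ligand-binding proteins *Gas1* and *Hhip*, the transducer *Smo*, the inhibitor *Sufu* and the transcription factors *Gli1*, *Gli2* and *Gli3*. These 9 genes of the 32285 in the count tables were taken by symbol, by a rule that uses no measured value, though earlier results of these data were known when the list was chosen. They were followed across pallial and GABAergic progenitors, glial-fated cells and neurons of the mouse cerebral cortex at embryonic day (E) 16.5. There were 2 single-cell RNA sequencing libraries, replicates 1 and 2, both of genotype WT, with the sample title EomesDot and described as control embryos. No treatment, strain or further allele was given by the labels, and there was no mutant group. The cortex was dissociated with papain and poly(A) RNA was counted with a 10x Genomics 3' droplet kit, in which a unique molecular identifier (UMI) tags each captured molecule. The labels do not say how many embryos went into a library, so an error over n = 2 libraries measures only how well these samples repeat each other.

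In Hedgehog signaling, PTCH1 holds SMO inactive until a ligand such as SHH binds it. Active SMO at the primary cilium releases GLI2 and GLI3 from SUFU, and the balance of GLI activator and repressor forms then sets target transcription. *Gli1*, *Ptch1* and *Hhip* are themselves classical targets, and PTCH1 and HHIP limit the signal by binding ligand, whereas GAS1, CDON and BOC act as coreceptors. In the developing forebrain, SHH patterns the ventral telencephalon, and GLI3 repressor is known to be needed for the dorsal telencephalon.

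Cells with 1500 to 60000 UMIs and under 10% mitochondrial UMIs were kept. They numbered 5966 in replicate 1 and 10247 in replicate 2, and 21 barcodes occurred in both libraries. After removal of 432 and 1111 likely doublets, 5534 and 9136 cells remained, with a median of 5493 and 4728 UMIs. Clustering without any Hedgehog pathway gene gave 27 clusters, from which 16 classes were named "X-like" by markers, 11 of them neural, and 24.3% of cells on average stayed unnamed. Radial glial cell (RGC)-like cells numbered 294 and 544, intermediate progenitor cell (IPC)-like cells 306 and 491, GABAergic progenitor-like cells 258 and 451, and glial-fated-like cells 21 and 17. All 12 radial glial markers were raised in the RGC-like cluster, as were 9 of 10 glial-fated markers in the glial-fated-like cluster, which was led by *Lhfpl3*, *Olig1* and *Pdgfra*. The dissected tissue also held cells with markers of striatal projection neurons and of GABAergic progenitors, which are known mainly from the ganglionic eminences, and erythroid-like cells, whose UMIs of a neural gene are given below as a background level. That level is not common to all classes: the 12 radial glial markers summed to 1110 and 2195 CPM in erythroid-like cells, above the 337 and 447 CPM of upper-layer and the 651.8 and 782.8 CPM of MGE interneuron-like cells. Levels below are raw UMIs summed per library and class and given as CPM, that is, scaled to a class total of 1e+06 UMIs. UMIs are counted at the 3' end of transcripts, so they carry no length correction, and levels are compared between classes for a single gene and not between genes.

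Of the 9 members, 7 matched a promoter in the RefSeq table of GRCm38.p6, the build of the counting (mm10). The 200 bases before the listed start are shown for *Gli3* and *Gas1*, the members with the steepest fall from RGCs to neurons together with *Gli2*, and for *Sufu*, the member with the smallest difference. Capitals mark GC boxes (GGGCGG, or CCGCCC on the other strand) and CCAAT boxes, searched on both strands. The stretches lie at chr13:15463523-15463722 (plus strand), chr13:60177536-60177735 (minus strand) and chr19:46396696-46396895 (plus strand).
*Gli3*: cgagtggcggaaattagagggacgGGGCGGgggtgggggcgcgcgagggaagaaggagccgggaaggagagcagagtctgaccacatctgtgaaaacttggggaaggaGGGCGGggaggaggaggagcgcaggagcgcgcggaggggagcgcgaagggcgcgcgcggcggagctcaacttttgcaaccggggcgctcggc
*Gas1*: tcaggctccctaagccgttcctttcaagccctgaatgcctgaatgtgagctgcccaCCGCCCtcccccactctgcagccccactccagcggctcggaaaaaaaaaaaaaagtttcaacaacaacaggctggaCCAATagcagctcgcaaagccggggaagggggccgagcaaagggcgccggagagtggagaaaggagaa
*Sufu*: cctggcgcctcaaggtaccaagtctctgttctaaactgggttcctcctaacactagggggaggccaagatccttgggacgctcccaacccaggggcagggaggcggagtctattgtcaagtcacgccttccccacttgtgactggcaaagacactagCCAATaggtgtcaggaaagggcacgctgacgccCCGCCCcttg
Over the 250 bases before the start, G and C made up 72.8% of the *Gli3* promoter, 58.8% of that of *Gas1* and 54% of that of *Sufu*, beside a median of 52% over 27025 promoters. *Gli3* held 2 GC boxes, and *Gas1* and *Sufu* each held 1 GC box and 1 CCAAT box. A GC box occurred in 32.9% and a CCAAT box in 34.5% of all promoters. The GLI motif GACCACCCA was in none of the 7 member promoters within these 250 bases, and in 0.211% of all promoters, so no match says only that these letters are not in this window.

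*Shh* (ENSMUSG00000002633; chromosome 5, 28456840-28467101, GRCm38.p6), the ligand, was near the detection limit. Among the kept cells, each library held 18 *Shh* UMIs, in 13 cells of replicate 1 and 17 cells of replicate 2. An unnamed cluster led by *Snhg11*, *Galntl6* and *Zic4*, with 172 and 168 cells, held 5 of these UMIs in replicate 1 and 7 in replicate 2. MGE interneuron-like cells, which carry markers of the medial ganglionic eminence, held 5 and 4 UMIs, or 2.11 and 1.15 CPM. GABAergic progenitor-like cells held 4 UMIs in 2 cells of replicate 1 and none in replicate 2, and RGC-like cells held none in replicate 1 and 3 in replicate 2. No *Shh* UMI was found in IPC-like, glial-fated-like, Cajal-Retzius-like or erythroid-like cells of either library. The level in the *Snhg11*-led cluster, 4.91 and 6.99 CPM, was the highest of any cluster, and both values stood above those of MGE interneuron-like cells. *Shh* did not pass the count filter and was not tested, so each comparison below is over 8 members. Summed over both libraries, the *Shh* level of MGE interneuron-like cells was 8.62 times that of the excitatory classes (9 against 3 UMIs), with a 95% interval of 2.15 to 49.5 that covers counting error only.

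**Figure D1:**
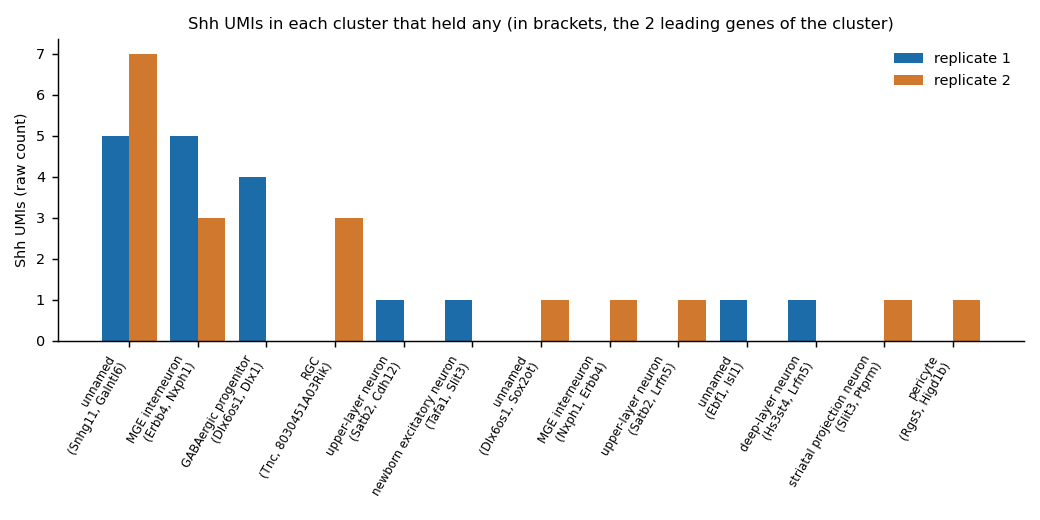
*Shh* UMIs (y axis, raw count) in each cluster that held any (x axis, with the 2 leading genes of the cluster in brackets), for replicate 1 (blue) and replicate 2 (orange). No cluster held more than 7 UMIs in a library, and the unnamed *Snhg11*-led cluster held 5 and 7.

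Among the receptors and ligand-binding proteins, *Ptch1* (ENSMUSG00000021466; chromosome 13, 63508328-63573460) was broadest. It reached 105 and 95.9 CPM in RGC-like cells of replicates 1 and 2, and 75.2 and 98.3 CPM in glial-fated-like cells, whose values overlapped with those of RGC-like cells. GABAergic progenitor-like cells had 45.9 and 50.2 CPM and striatal projection neuron-like cells 43.9 and 36.9 CPM. An unnamed cluster led by *Ebf1* and *Isl1*, which are striatal projection neuron markers, had 50.95 and 71.6 CPM, the highest *Ptch1* level of any cluster with neuronal leading genes. Interneuron-like classes lay between 24.7 and 33.4 CPM, IPC-like cells had 17.9 and 18.2 CPM, and newborn excitatory neuron-like cells were the lowest neural class at 7.77 and 7.35 CPM. The order was therefore RGC-like and glial-fated-like cells first, then GABAergic progenitors and striatal neurons, then interneurons, with IPC-like and upper-layer neuron-like cells (12.2 and 10.97 CPM) and newborn excitatory neurons at the low end. Deep-layer neuron-like cells at 15.2 and 23.6 CPM and Cajal-Retzius-like cells at 33.6 and 12.4 CPM overlapped with several of these.

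*Gas1* (ENSMUSG00000052957; chromosome 13, 60174405-60177535) was a gene of pallial progenitors. It was at 227 and 222 CPM in RGC-like cells, 142 and 85.9 CPM in IPC-like cells, 40.5 and 43.96 CPM in GABAergic progenitor-like cells and 43.9 and 44.7 CPM in glial-fated-like cells. The classes from RGC-like to IPC-like to GABAergic progenitor-like did not overlap between libraries, whereas GABAergic progenitor-like and glial-fated-like cells could not be ordered beyond their spread. Erythroid-like cells had 19.8 and 12.3 CPM, and every neuronal class lay below this background in each library, striatal projection neuron-like cells at 14.2 and 6.75 CPM, Cajal-Retzius-like cells at 13.4 and 6.22 CPM and the others at 4.08 CPM or less. *Hhip* (ENSMUSG00000064325; chromosome 8, 79965850-80058060) was sparse, with 29 and 31 UMIs in RGC-like cells, or 11.7 and 9.41 CPM. Glial-fated-like cells had 1 and 2 *Hhip* UMIs, and no other neural class exceeded 4.76 CPM. Summed over both libraries, glial-fated-like cells were at 11.05 CPM and RGC-like cells at 10.39 CPM. The ratio was 1.06 (95% counting interval 0.213 to 3.26), so these classes could not be ordered. Of the *Hhip* UMIs, 43.3% and 42.5% came from RGC-like cells.

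*Smo* (ENSMUSG00000001761; chromosome 6, 29735497-29761366), the transducer, showed a shallow gradient. RGC-like cells had 56.5 and 62.5 CPM, GABAergic progenitor-like cells 46.5 and 42.1 CPM, glial-fated-like cells 31.3 and 44.7 CPM and IPC-like cells 31.4 and 37.3 CPM. Glial-fated-like values, from 5 UMIs per library, overlapped with those of both GABAergic progenitor-like and IPC-like cells, which did not overlap with each other. MGE interneuron-like cells had 25.4 and 25.7 CPM and newborn excitatory neuron-like cells 22.8 and 23.5 CPM, while upper-layer and deep-layer neuron-like cells fell between 5.23 and 10.03 CPM. *Sufu* (ENSMUSG00000025231; chromosome 19, 46396896-46488804), which restrains GLI proteins, was the flattest member. Its highest neural level was in IPC-like cells, 63.9 and 46.6 CPM, and RGC-like cells at 25.8 and 27.6 CPM lay slightly below GABAergic progenitor-like cells at 30.8 and 30.04 CPM. All neuronal classes had at least 15.7 CPM of *Sufu* in each library. Cajal-Retzius-like cells, at 53.7 and 24.9 CPM from 8 UMIs per library, overlapped with most other classes.

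Of the GLI genes, *Gli3* and *Gli2* showed steep gradients and *Gli1* was sparse. *Gli3* (ENSMUSG00000021318; chromosome 13, 15463723-15730026) reached 605 and 598 CPM in RGC-like cells, from 1499 and 1972 UMIs. It stood at 209.5 and 185 CPM in IPC-like, 164 and 145 CPM in GABAergic progenitor-like and 39.3 and 38.8 CPM in newborn excitatory neuron-like cells, and these 4 classes did not overlap between libraries. Glial-fated-like cells had 4 *Gli3* UMIs in replicate 1 (25.1 CPM) and none in replicate 2. Upper-layer, deep-layer, MGE interneuron-like and striatal projection neuron-like cells all lay at 4.56 CPM or less, below the 4.94 and 7.05 CPM of erythroid-like cells. *Gli2* (ENSMUSG00000048402; chromosome 1, 118834061-119054405) had the same first 4 neural classes in the same order, with 139 and 133 CPM in RGC-like, 107 and 109 CPM in IPC-like, 72.4 and 78.8 CPM in GABAergic progenitor-like and 15.7 and 15.4 CPM in newborn excitatory neuron-like cells, leaving aside the few Cajal-Retzius-like cells at 26.9 and 3.11 CPM. *Gli1* (ENSMUSG00000025407; chromosome 10, 127329882-127341579), the classical read-out of active signaling, had only 40 UMIs in each library. RGC-like cells held 16 and 14 of them, or 6.46 and 4.25 CPM, and erythroid-like cells 5 and 1, or 8.23 and 0.881 CPM, which overlaps with the level in RGC-like cells. Larger classes lay lower, at 0.159 and 0.121 CPM in newborn excitatory neuron-like, 0.436 and 0 in upper-layer neuron-like, 0 and 0.288 in MGE interneuron-like and 0 in both libraries of striatal projection neuron-like cells, so both RGC-like values stood above those of these neurons.

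**Figure D2:**
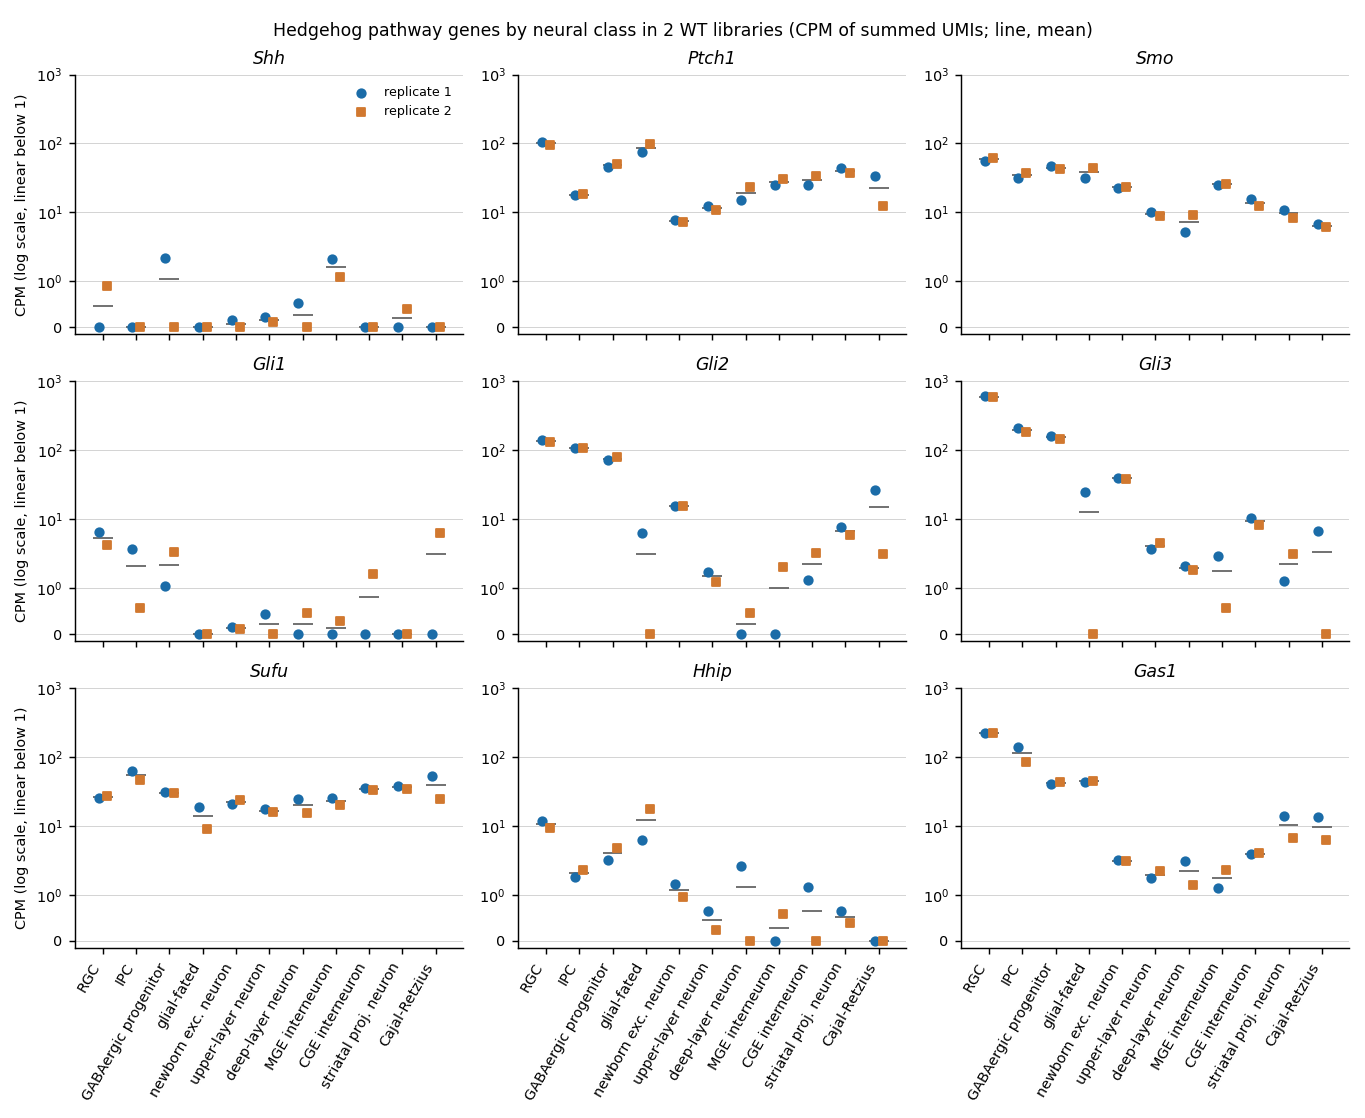
CPM of each member (y axis, log scale above 1 and linear below) in the 11 neural classes (x axis) in replicate 1 (circles) and replicate 2 (squares), with a line at the mean. *Gli3*, *Gli2* and *Gas1* fell from RGC-like cells to neurons, *Gli3* from 605 and 598 CPM to at most 10.4 CPM in all neuronal classes except newborn excitatory neuron-like cells, while *Sufu* stayed between 8.93 and 63.9 CPM and *Ptch1* at 7.35 CPM or more in every class.

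The progenitor classes together (RGC-like, IPC-like and GABAergic progenitor-like) held 83.5% and 82.5% of all *Gli3* UMIs, 80.6% and 78.5% of *Gli2* and 87.5% and 86.2% of *Gas1*. They held 42.6% and 38.2% of *Ptch1*, 35.9% and 37.4% of *Smo* and 32.2% and 26.6% of *Sufu* UMIs. In single cells, a *Gli3* UMI was found in 87.7% ± 4.43 (SD, n = 2) of RGC-like cells, 64.3% ± 8.87 of IPC-like cells and 46.3% ± 4.08 of GABAergic progenitor-like cells. The share in erythroid-like cells, which should lack *Gli3*, was 1.81% ± 0.268 at a median depth of 2659 and 2615 UMIs, against 7681 and 5014 UMIs in RGC-like cells. With each cell thinned to 1500 UMIs, the *Gli3* shares were 54.9% ± 1.26 in RGC-like, 24.7% ± 1.89 in IPC-like, 18.1% ± 1.78 in GABAergic progenitor-like and 0.853% ± 0.269 in erythroid-like cells. Thinned *Gli3* shares of 0.760% ± 0.118 in upper-layer neuron-like and 0.230% ± 0.205 in MGE interneuron-like cells did not exceed the erythroid share, whereas 1.20% ± 0.0679 in CGE interneuron-like and 5.61% ± 0.0188 in newborn excitatory neuron-like cells did. For the other members in RGC-like against erythroid-like cells, thinned shares were 23.4% ± 0.786 against 1.95% ± 0.0965 for *Gas1*, 19.9% ± 1.87 against 1.10% ± 0.463 for *Gli2*, 14.2% ± 0.377 against 0.882% ± 1.003 for *Ptch1* and 9.46% ± 0.347 against 0.547% ± 0.773 for *Smo*. *Gli1* had 0.970% ± 0.262 against 0.453% ± 0.449.

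Comparison of pallial progenitors with pallial neurons asked which members differed along the excitatory lineage. Sums of UMIs per library and class were compared in edgeR's quasi-likelihood test with library as a block, p-values were adjusted over all 15282 genes tested, and a gene was called at an adjusted p under 0.05. A positive log2 fold change means a higher level in the class named first. In RGC-like cells, 7 of the 8 tested members were higher than in excitatory neuron-like cells (the mean of upper-layer and deep-layer classes), namely *Gli3*, *Gli2*, *Gas1*, *Gli1*, *Hhip*, *Smo* and *Ptch1*. None was lower, beside 30.7% of all tested genes called higher and 29.4% called lower. *Gli1* and *Hhip* met the count filter mainly through RGC-like cells, with 30 and 60 UMIs there against 3 and 10 in the excitatory classes. Their calls in comparisons of RGC-like cells with other classes thus follow in part from the filter. The median log2 fold change of the 8 members was 3.90, against a median of all genes within 0.04 of 0. *Gli3* had a log2 fold change of 7.50 ± 0.15 (SE) with an adjusted p of 6.31e-33 in edgeR's quasi-likelihood test, and *Gli2* one of 7.50 ± 0.24 with an adjusted p of 3.03e-27. From summed UMIs, the ratio was 162.7 (95% counting interval 126.6 to 212.6) for *Gli3* and 119.6 (76.1 to 199.7) for *Gli2*. *Gas1* followed with a log2 fold change of 6.51 ± 0.19 and a ratio of 107 (76.8 to 154.9). These sizes depended on which cells entered: with no doublets removed the log2 fold changes were 5.51 for *Gli3*, 5.04 for *Gli2* and 5.17 for *Gas1*, and with cells assigned to classes by their marker UMIs in place of clusters 5.18, 4.57 and 6.30, all still called. For *Gli1* the ratio was 29.1 (9.04 to 148.8), from 30 against 3 UMIs. *Gli1* (4.19 ± 0.83), *Hhip* (3.61 ± 0.56), *Smo* (2.67 ± 0.17) and *Ptch1* (2.57 ± 0.14) had smaller log2 fold changes, with *Smo* at 1.63 under marker assignment. *Sufu* was at 0.39 ± 0.19, with an adjusted p of 0.0699 in edgeR, and passed the threshold when no doublets were removed (adjusted p of 0.0441) or when only the compared classes entered the edgeR fit (0.0340). In upper-layer and deep-layer neuron-like cells, *Gli3*, *Gli2* and *Gas1* lay below their level in erythroid-like cells in both libraries.

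**Figure D3:**
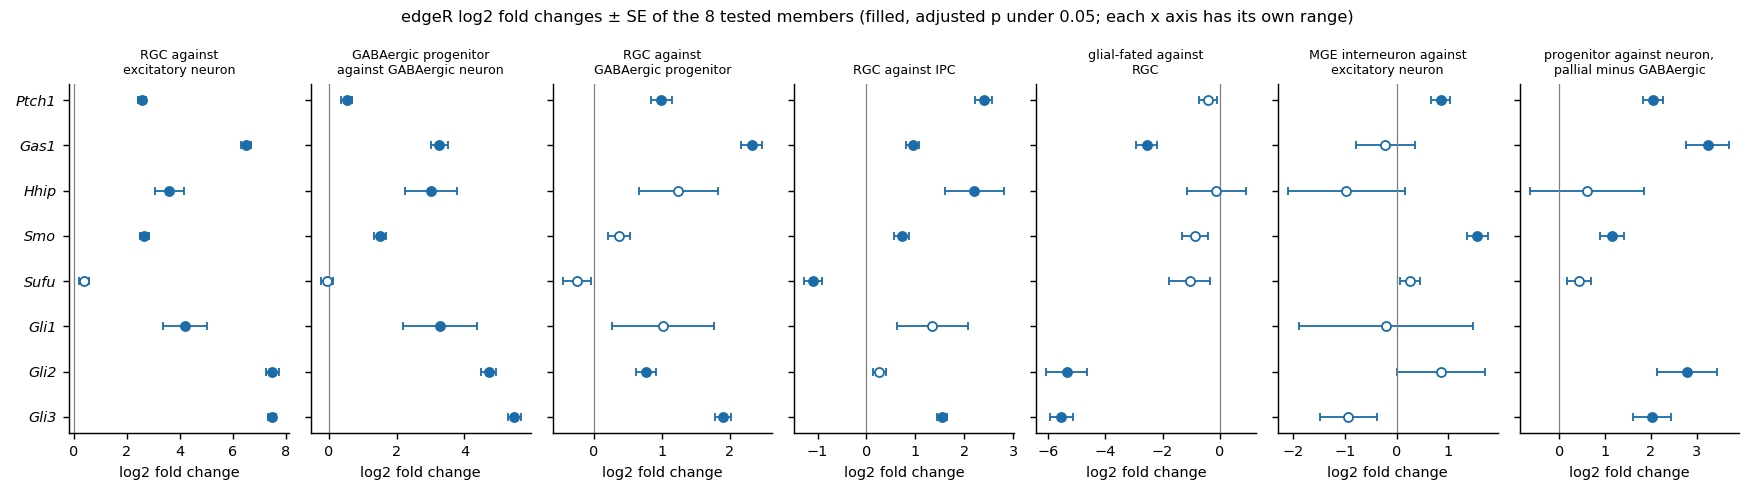
Log2 fold changes of the 8 tested members (y axis) in the 7 comparisons (panels, each x axis with its own range); bars are SE and filled points have an adjusted p under 0.05 in edgeR. *Gli1* is not drawn where a compared class held none of its UMIs and the fitted value is no estimate. *Gli2*, *Gli3* and *Gas1* lie furthest from 0 in the panel of RGCs against excitatory neurons, up to 7.50, and *Sufu* was called in a single panel, against IPCs (-1.09).

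In the GABAergic lineage the same 7 members were higher in progenitors than in neurons (the mean of MGE interneuron-like, CGE interneuron-like and striatal projection neuron-like classes), beside 23.7% of all tested genes called higher and 22.2% lower. The median over 8 members was 3.14. *Gli3* went from 2.96 and 0.577 CPM in MGE interneuron-like, 10.4 and 8.16 CPM in CGE interneuron-like and 1.29 and 3.18 CPM in striatal projection neuron-like cells to 164 and 145 CPM in GABAergic progenitor-like cells, a log2 fold change of 5.47 ± 0.18 (edgeR adjusted p of 5.58e-26). *Gli2* had 4.72 ± 0.23, *Gas1* 3.27 ± 0.25, *Hhip* 3.02 ± 0.77 and *Smo* 1.51 ± 0.18 on the same log2 scale. With marker assignment these were 4.16 for *Gli3*, 3.62 for *Gli2*, 3.08 for *Gas1* and 0.75 for *Smo*, and with no doublets removed 4.20, 3.86, 2.44 and 1.73, all called. For *Gli1*, progenitors held 11 UMIs and all 3 neuronal classes together 3, a ratio of 9.52 (2.52 to 53.2); striatal projection neuron-like cells held none. The difference of *Ptch1* was small, 0.53 ± 0.16 with an edgeR adjusted p of 0.00545. It did not pass with coarser clusters (Leiden resolution 0.6; 0.31, adjusted p of 0.0879) or with cells assigned by marker UMIs (0.07, adjusted p of 0.81), where *Hhip* also missed the threshold (2.16, adjusted p of 0.0715). *Sufu* was at -0.05 ± 0.18.

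The 2 lineages were then compared by an interaction term. For 5 of the 8 members the progenitor-to-neuron difference was larger in the pallial than in the GABAergic lineage, and for none was it smaller, beside 13.6% and 14.7% of all tested genes in the respective directions. The difference between the log2 fold changes was 3.24 ± 0.47 for *Gas1*, 2.78 ± 0.65 for *Gli2*, 2.04 ± 0.22 for *Ptch1*, 2.03 ± 0.42 for *Gli3* and 1.15 ± 0.26 for *Smo*. The values of *Gli2* and *Gli3* were smaller in other settings: *Gli2* was at 1.17 with no doublets removed and 0.94 with marker assignment, and *Gli3* at 1.32 and 1.02, all still called, while *Ptch1* was at 2.82 with marker assignment. With no doublets removed, *Smo* no longer passed (0.39, edgeR adjusted p of 0.29). *Hhip* (0.60 ± 1.24) and *Sufu* (0.44 ± 0.26) did not pass, nor did *Gli1*, for which no value is given because striatal projection neuron-like cells held none of its UMIs. *Gas1* lay below its level in erythroid-like cells in every neuronal class. *Gli3* did so in all compared neuronal classes except CGE interneuron-like cells, and *Gli2* in the pallial ones. For these genes the size of the interaction therefore rests partly on neuronal counts at background level.

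Pallial and GABAergic progenitors expressed unequal levels of 4 members. *Gas1*, *Gli3*, *Ptch1* and *Gli2* were higher in RGC-like than in GABAergic progenitor-like cells, and none of the 8 members was lower, beside 19% of all tested genes called higher and 19% called lower. *Gas1* had 227 and 222 against 40.5 and 43.96 CPM, a log2 fold change of 2.33 ± 0.15 (edgeR adjusted p of 6.56e-16). *Gli3* had 1.90 ± 0.12, *Ptch1* 0.99 ± 0.16 and *Gli2* 0.77 ± 0.14. All 4 had no overlap between the libraries of the 2 classes. *Hhip* (1.25 ± 0.58, adjusted p of 0.0884 in edgeR) and *Smo* (0.38 ± 0.16, 0.0603) missed the threshold and passed it in 4 of the other settings each. *Gli1* was at 1.02 ± 0.75 and *Sufu* at -0.24 ± 0.21. By S and G2M phase scores, 100% and 99.6% of GABAergic progenitor-like cells were cycling, against 65.3% and 59.2% of RGC-like cells. This share follows from the naming, since a GABAergic cluster was called progenitor-like where at least 2 of the cycle genes *Mki67*, *Top2a* and *Cdk1* were raised, and GABAergic progenitors between cycles may lie in other clusters. Phase calls therefore differed along with class. Within RGC-like cells called cycling, *Gli3* was at 658 and 672 CPM, *Gas1* at 282 and 290 CPM, *Gli2* at 138 and 144 CPM and *Ptch1* at 72.05 and 78.4 CPM, as a description by phase call. The part of the cell cycle in the class differences was not tested.

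Along the step from RGCs to IPCs, 5 members were higher in RGC-like cells, beside 18.2% of all tested genes, and *Sufu* was lower, beside 14%. *Ptch1* was called in every setting, with 105 and 95.9 CPM in RGC-like and 17.9 and 18.2 CPM in IPC-like cells and a log2 fold change of 2.40 ± 0.17 (edgeR adjusted p of 5.5e-15). *Hhip* followed at 2.21 ± 0.61, *Gli3* at 1.55 ± 0.11, *Gas1* at 0.95 ± 0.13 and *Smo* at 0.72 ± 0.16. *Sufu* was higher in IPC-like cells, at 63.9 and 46.6 CPM against 25.8 and 27.6 CPM, with a log2 fold change of -1.09 ± 0.18 and an edgeR adjusted p of 4.97e-06. *Gli2*, at 0.27 ± 0.13 with an edgeR adjusted p of 0.123, missed the threshold and passed it in 3 of the other settings, DESeq2 among them (0.0448). *Gli1*, with 6.46 and 4.25 CPM in RGC-like and 3.65 and 0.579 CPM in IPC-like cells, was at 1.35 ± 0.73 (edgeR adjusted p of 0.165) and passed with no doublets removed (1.80, 0.0471) and with marker assignment (2.41, 0.0198). In these settings *Hhip* was at 3.66 and 4.09, above *Ptch1* at 2.88 and 2.69, so the 2 genes cannot be ranked.

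Inside RGC-like cells, members differed in opposite directions between cells called cycling and not cycling, which is given as a description. The split rests on S and G2M phase calls alone, and the same calls marked 12.01% and 16.01% of MGE interneuron-like cells as cycling, so it is a split by score and not by shown proliferation. *Ptch1* was at 72.05 and 78.4 CPM in cycling and at 185 and 123 CPM in non-cycling RGC-like cells. *Gas1* showed the reverse order, 282 and 290 CPM in cycling and 94.8 and 117 CPM in non-cycling cells, and *Gli3* went from 658 and 672 CPM to 479 and 484 CPM. *Gli2* and *Smo* overlapped between the phases. In IPC-like cells, *Gas1* was at 309.9 and 148 CPM in cycling and 53.4 and 42.98 CPM in non-cycling cells, and *Ptch1* at 31.8 and 33.4 CPM in cycling and 10.6 and 7.81 CPM in non-cycling cells. In IPC-like cells the phases were largely different clusters: 57 and 130 of the 92 and 182 cycling cells formed a cluster with 9 of 12 radial glial markers raised, and all non-cycling cells lay in the other cluster, with 8 of 12 raised. By cluster, *Ptch1* was at 37.4 and 39.6 CPM in the first and 11.6 and 8.44 CPM in the second. Phases were not compared within a cluster. The *Gas1* values of cycling IPC-like cells lay on either side of those of cycling RGC-like cells, so *Gas1* did not separate these classes among cells called cycling. *Gli3* did, at 214 and 180.3 CPM in cycling IPC-like cells. *Sufu* was lower in cycling than in non-cycling IPC-like cells, at 39.3 and 42.6 against 76.8 and 49.3 CPM.

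**Figure D4:**
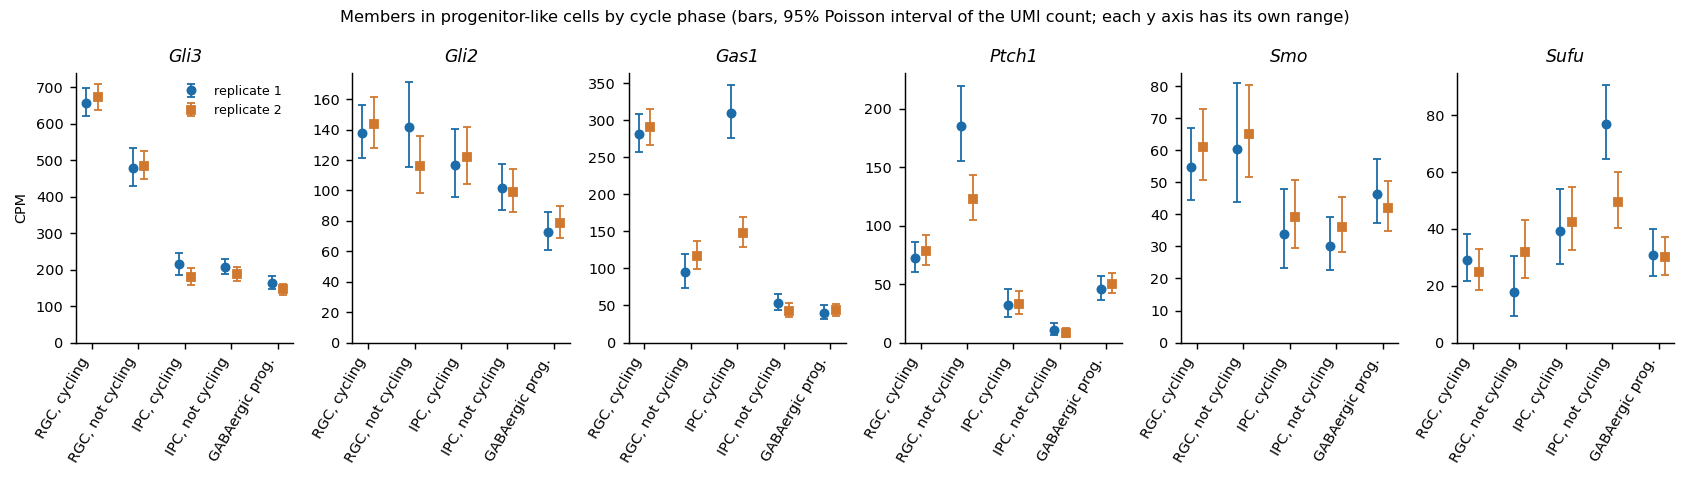
CPM of 6 members (y axis, each with its own range from 0) in RGC-like and IPC-like cells split by cycle phase and in GABAergic progenitor-like cells (x axis), for replicate 1 (circles) and replicate 2 (squares); bars are 95% Poisson intervals of the UMI count. *Gas1* lies near 282 to 290 CPM in cycling and near 95 to 117 CPM in non-cycling RGC-like cells, and *Ptch1* has the opposite order.

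Glial-fated-like cells differed from RGC-like cells in *Gli2*, *Gli3* and *Gas1* and not detectably in *Ptch1*. Of the 8 tested members, *Gli3*, *Gli2* and *Gas1* were lower and none was higher, beside 5.67% of all tested genes called lower and 4.17% called higher. This comparison rests on 21 and 17 cells with 159519 and 111948 UMIs, and the median log2 fold change of all tested genes was -0.40 in edgeR, beside which the values of the members stand. All genes split into 637 higher and 866 lower in edgeR, and into 1000 and 450 in DESeq2, where that median was 0. The cause of this shift was not tested. *Gli3* had 4 UMIs in both libraries together against 3471 in RGC-like cells, a ratio of 0.0245 (95% counting interval 0.00667 to 0.0628) and a log2 fold change of -5.53 ± 0.39 (edgeR adjusted p of 3.86e-15). *Gli2* had 1 UMI, a ratio of 0.0272 (0.000687 to 0.152). *Gas1* had 7 and 5 UMIs, a ratio of 0.197 (0.102 to 0.346) and a log2 fold change of -2.55 ± 0.36. *Ptch1* had 12 and 11 UMIs, with a ratio of 0.848 (0.533 to 1.28). *Gli1* held no UMI in either library, which allows up to 18.8 and 26.8 CPM (3 counts per library), above its level in RGC-like cells, so no fold is given. *Smo* (-0.87 ± 0.44), *Sufu* (-1.05 ± 0.72) and *Hhip* (-0.12 ± 1.03) did not pass, though *Smo* did with no doublets removed (-1.28, edgeR adjusted p of 0.0453).

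The size of this difference depended on how glial-fated cells were chosen. Cells assigned by marker UMIs numbered 34 and 35 and had 80.8 and 173 CPM of *Gli3*, 73.8 and 41.2 CPM of *Gli2* and 172 and 173 CPM of *Gas1*. With them the log2 fold changes were -2.49 for *Gli3*, -1.43 for *Gli2* and -0.71 for *Gas1*, and all 3 still passed. *Ptch1* was at 176 and 132 CPM in these cells, with a log2 fold change of 0.61 and an edgeR adjusted p of 0.0683. The 10 glial-fated markers summed to 3811 and 3859 CPM in glial-fated-like and to 874.9 and 792 CPM in RGC-like cells, with 1 of the 10 at 0 in glial-fated-like cells. The 12 radial glial markers summed to 11350 and 11680 CPM in glial-fated-like and to 16370 and 15860 CPM in RGC-like cells, with 4 of the 12 at 0 in glial-fated-like cells. The part of these marker levels in the result was not tested.

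Between neuron types, *Smo* and *Ptch1* were higher in MGE interneuron-like cells than in upper-layer and deep-layer neurons, averaged. These 2 of 8 members were called higher, beside 15.8% of all tested genes, and none was called lower, beside 16.3%. *Smo* had 25.4 and 25.7 CPM against 10.03 and 9.002 CPM in upper-layer and 5.23 and 9.24 CPM in deep-layer neuron-like cells, which gave a log2 fold change of 1.56 ± 0.20 (edgeR adjusted p of 3.85e-08). Newborn excitatory neuron-like cells, which are outside this comparison, had 22.8 and 23.5 CPM of *Smo*, close to the MGE level. The difference of *Smo* did not pass with cells assigned by marker UMIs (0.35, adjusted p of 0.124). *Ptch1* had 24.9 and 30.6 CPM against 12.2 and 10.97 CPM in upper-layer and 15.2 and 23.6 CPM in deep-layer neuron-like cells, a log2 fold change of 0.85 ± 0.18 (edgeR adjusted p of 0.000279). The 7 erythroid markers summed to 1847 and 3361 CPM in MGE interneuron-like cells, to 799 and 1205 CPM in upper-layer and to 676 and 987 CPM in deep-layer neuron-like cells, and the 12 radial glial markers to 651.8 and 782.8 CPM against 337 and 447 CPM in upper-layer neuron-like cells. The part of these levels in the result was not tested, and erythroid-like cells themselves had 0 and 5.28 CPM of *Smo* and 1.65 and 7.93 CPM of *Ptch1*. *Gli3* was at -0.93 ± 0.56 and not called, while its ratio of summed UMIs was 0.417 (95% counting interval 0.182 to 0.844, from 9 against 62 UMIs), and it was called lower with no doublets removed (-0.75), at a Leiden resolution of 0.6 (-1.52, edgeR adjusted p of 0.0205) and with marker assignment (-1.13, 0.000647). *Gli2* (0.86 ± 0.85), *Hhip* (-0.97 ± 1.13), *Gli1* (-0.20 ± 1.68), *Gas1* (-0.22 ± 0.57) and *Sufu* (0.25 ± 0.19) did not pass. The median over the 8 members was 0.03. With no doublets removed, 4 members were called, *Smo* (0.80), *Ptch1*, *Gli3* and *Shh* (3.82). *Shh* then passed the count filter only through MGE interneuron-like cells, which held 13 and 11 of its UMIs. No other neural class reached 10 in a library, so its call follows from this selection and is no support.

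Outside the neural classes, meningeal fibroblast-like cells carried most of the receptor-side and GLI members. They had 80.1 and 73.5 CPM of *Ptch1*, 66.8 and 78.5 CPM of *Smo*, 89 and 104 CPM of *Gli3*, 35.6 and 45.1 CPM of *Gli2* and 48.95 and 31.8 CPM of *Gas1*. Their *Gli1* level of 6.68 CPM in both libraries came from 3 and 4 UMIs. Pericyte-like cells had 49.1 and 65.9 CPM of *Gli3*. Microglia-like cells had 86.3 and 43.1 CPM of *Smo* from 13 and 16 UMIs, and no UMI of *Gli3*, *Gli1*, *Gas1*, *Hhip* or *Shh*. In RGC-like cells, the 6 meningeal fibroblast markers summed to 13.3 and 32.2 CPM, none of them at 0.

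Of 42 further pathway genes, 36 could be tested, and *Ihh*, *Dhh*, *Scube2*, *Nkx2-2*, *Foxf1* and *Foxa2* did not pass the count filter. Over all kept cells of the named classes, *Ihh* had 3 UMIs and *Dhh* 6. In RGC-like against excitatory neuron-like cells 11 of the 36 were higher and 12 lower, beside 30.7% and 29.4% of all tested genes, with a median log2 fold change of 0.00. By list, 3 of 4 tested receptor-side genes were higher and none lower, none of 5 tested genes of ligand release was higher and 3 were lower, 5 of 23 genes of the cilium and transduction were higher and 8 lower, and 3 of 4 genes known as targets in some tissues were higher and 1 lower. *Lrp2*, a receptor that binds SHH, had 19.8 and 11.8 CPM in RGC-like cells and at most 1.62 CPM in the other neural classes, with log2 fold changes of 6.07 ± 0.64 against excitatory neurons, 3.96 ± 0.70 against GABAergic progenitors and 6.05 ± 0.85 against IPCs. *Scube1*, which helps release SHH, was lower in RGC-like cells, at 2.83 and 6.37 CPM against 87.7 and 76.1 CPM in upper-layer neuron-like cells (-3.80 ± 0.25). *Disp2*, a relative of the ligand exporter *Disp1*, was at -4.41 ± 0.45.

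In GABAergic progenitors against GABAergic neurons, 8 of the 36 were higher and 8 lower, beside 23.7% and 22.2% of all tested genes. *Ccnd1*, a cyclin of the G1 phase, was higher by 3.06 ± 0.18 on the log2 scale and the coreceptor *Boc* by 2.79 ± 0.32, while *Scube1* was lower (-1.94 ± 0.50), with 136 and 159 CPM in striatal projection neuron-like cells, a call lost with no doublets removed (-0.51, edgeR adjusted p of 0.357). In RGC-like against GABAergic progenitor-like cells, 7 were higher and 4 lower (all tested genes, 19% each), among the former *Bcl2*, an inhibitor of apoptosis (2.54 ± 0.19), and *Boc* (2.38 ± 0.18). Against IPC-like cells 6 were higher, including *Bcl2* (2.28 ± 0.17), and 3 lower, including *Stk36* (-1.08 ± 0.30), a kinase of the pathway, beside 18.2% and 14% of all tested genes. In glial-fated-like against RGC-like cells 1 was higher and 6 were lower, beside 4.17% and 5.67% of all tested genes. The coreceptors *Cdon*, at 50.1 and 17.9 CPM against 454 and 398 CPM (-3.72 ± 0.37), and *Boc* (-3.42 ± 0.57) were lower, as was *Tulp3*, a ciliary trafficking protein (-3.42 ± 0.98), which DESeq2 did not call (adjusted p of 0.153). In MGE interneuron-like against excitatory neuron-like cells 5 were higher, including *Hhat*, which acylates Hedgehog ligands (1.06 ± 0.31), and 9 lower, including *Boc* (-4.90 ± 0.38) and *Mycn*, a MYC family transcription factor (-2.07 ± 0.20), beside 15.8% and 16.3% of all tested genes. The interaction term called 6 in each direction, beside 13.6% and 14.7% of all tested genes, with *Lrp2* (5.57 ± 1.50) and *Bcl2* (2.68 ± 0.24) larger in the pallial and *Disp2* (-3.54 ± 0.67) in the opposite direction.

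Across the 16 named classes, the Pearson correlation of log2(mean CPM + 1) was computed between each member and all genes that reached 10 CPM in at least 1 class. These points share libraries, and depth and class size differ between them, so the values are descriptions. *Gli2* and *Gli3* resembled each other (r = 0.86), and *Gas1* was at r = 0.84 with *Gli2* and 0.77 with *Gli3*. The genes most like *Gli3* were *Mrpl13* (0.92), *Mdk* (0.90) and *Nsmce4a* (0.90), and those most like *Gas1* were *Pdpn* (0.88), *Tmem218* (0.87) and *Pacsin3* (0.87). For *Gli2* they were *Kcne1l*, *Gli3* and *Mrpl13* (0.86 each). *Ptch1* was most like *Chpt1* (0.84), *Spon1* (0.83) and *Prrg1* (0.82), and its correlation with *Hhip* was 0.73 and with *Gli1* 0.22. *Smo* was most like *Fgfr1op2* (0.94), *Alkbh5* (0.92) and *Dusp16* (0.91), *Sufu* most like *App* (0.92), *Hbp1* (0.91) and *D330041H03Rik* (0.89), and *Hhip* most like *Plscr4* (0.95), *Cyp2j9* (0.91) and *Vit* (0.90).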

How the data were processed

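The authors deposited raw counts of UMIs per gene and barcode, without normalization, counted on mm10 with Cell Ranger 7.0.0 per the submitters' processing notes (7.1.0 per the file headers). The members and gene lists were chosen with earlier results of these data known. Scrublet (scanpy 1.11.5) was run on each library, and barcodes with the highest scores were taken out at 0.8% per 1000 barcodes. Counts were scaled to 10000 per cell, and 2000 variable genes without pathway, mitochondrial, ribosomal, globin and sex-linked genes were scaled within library. S and G2M scores (42 and 52 genes) were regressed out, and 30 components and 20 neighbours gave Leiden clusters (leidenalg 0.10.2, resolution 1). A cluster was named from 21 marker lists where at least 3 markers were raised and in at least 10% of cells, with a mean score of at least 1 (2.5 for lists of GABAergic neuron types) and no larger number of another list's markers among its 10 leading genes. A GABAergic cluster with at least 2 of *Mki67*, *Top2a* and *Cdk1* raised was named progenitor-like. The score limits were chosen once clusters were known, without the members' values.

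UMIs were summed per library and class and compared in edgeR 4.0.16 under R 4.3.3, using TMM normalization, a filter keeping genes that reached 10 counts in 2 or more sums, the quasi-likelihood test with class plus library as terms, and Benjamini-Hochberg adjustment over all genes tested, with a call at an adjusted p under 0.05. Classes needed 20 cells per library, and 15 in the glial-fated comparison, a limit set after seeing cell numbers. The SE is the log2 fold change divided by the square root of F. The test was checked on simulated counts. DESeq2 1.42.0 and other settings were alternatives. Of the 9 members, all but *Shh*, which did not pass the count filter, are named in each comparison. Up to 3 called further pathway genes follow, ranked by fold change, where the higher class reached 10 CPM and both libraries moved 1 way. For likeness, the 3 most correlated genes are named. Genes that overlap or have close relatives may share reads.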

Additional observations from a re-analysis of the deposited data

Results flagged for a closer look

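The interaction term of edgeR found a progenitor-to-neuron difference that was unequal between the pallial and GABAergic lineages for 8 of the named genes. The difference of the log2 fold changes, pallial minus GABAergic, was 2.04 for *Ptch1*, 1.15 for *Smo*, 2.78 for *Gli2*, 2.03 for *Gli3* and 3.24 for *Gas1*. Among the further pathway genes it was 5.57 for *Lrp2*, -3.54 for *Disp2* and 2.68 for *Bcl2*. All of these have the same sign in both libraries. For *Gas1*, *Gli3* and *Gli2* the sizes rest partly on neuronal counts at background level, as given above. With 2 libraries, no check for a library that stands apart within the group was possible.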

How the results depend on the processing

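With 2 libraries of 1 group, depth limits *Shh*, *Gli1* and *Hhip* most, and the 38 glial-fated-like cells limit their comparison. Each fit pairs the classes by library, and without this block the number of members called was the same in each comparison. Over the settings tried, members called ranged from 7 to 8 for RGCs against excitatory neurons, 5 to 7 for GABAergic progenitors against neurons, 4 to 6 for RGCs against GABAergic progenitors, 6 to 8 for RGCs against IPCs, 3 to 4 for glial-fated cells, 2 to 4 for MGE interneurons and 4 to 5 for the interaction. In the MGE comparison, 4 members were called with no doublets removed, among them *Shh*, which passed the count filter only through MGE interneuron-like cells. Of the results over settings, 561 kept direction and side of the threshold, 19 came to pass it, 7 no longer passed and 12 changed sign, none of which was called in either setting. These were *Ptch1* (0.0505 with no doublets removed, 0.61 with marker gates) and *Hhip* (0.15 in DESeq2, 0.31 with no doublets removed, 0.0811 with only the compared classes, 0.21 with gates) in glial-fated cells. They also were *Sufu* (0.0811 with no doublets removed, 0.000849 with at least 15 cells per class) in GABAergic progenitors, and, in MGE interneurons, *Gli1* (0.12) and *Gli2* (-0.61) with gates and *Hhip* (0.16) and *Gas1* (0.0375) with no doublets removed. The cause was not tested. The median of all genes moved to -0.11 in DESeq2 and -0.16 at a Leiden resolution of 0.6 for GABAergic progenitors, to -0.12 at that resolution for RGCs against excitatory neurons, and to 0.14 in DESeq2 for RGCs against IPCs. The number of members highest in RGC-like cells was 6 of 9 by mean level among the 11 neural classes and ranged from 4 to 7 with a library left out; by share of cells it was 5 and ranged from 5 to 6. Leaving out a library leaves no test for the comparisons, and the value is then the log2 ratio of the other library. Of 154 such ratios, 98 stayed within the spread and 56 moved by more. With 2 libraries, each ratio lies at a fixed share of the SD from their mean, so these counts do not measure stability. No called result changed sign, and changes of sign among results not called were not counted. *Scube1* in GABAergic progenitors no longer passed with no doublets removed (-0.51).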
